A study of Homo sapiens with 12 samples.

Results

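Transcripts of 9 coagulation and fibrinolysis genes were followed in MOLM-13 cells, a human acute myeloid leukaemia (AML) line with an MLL-AF9 fusion. The genes were F3, TFPI, THBD, PLAU, PLAUR, SERPINB2, ANXA2, S100A10 and A2M. They were taken by symbol from a matrix of 46639 gene symbols, and the transcript rows of each symbol were summed. Total RNA depleted of ribosomal RNA was sequenced in 12 libraries, 3 in each of 4 groups: untreated cells, cells given decitabine (DAC, 100 nM, a DNA methyltransferase inhibitor), cells given all-trans retinoic acid (ATRA, 1 µM) and cells given both (DAC+ATRA). Per the labels, the medium of all groups held GM-CSF. The labels give 72 h for the treated groups and 96 h for untreated cells, the methods start ATRA later than DAC, and no solvent control was among these libraries. Treatment and time in culture therefore cannot be told apart in comparisons with untreated cells. The replicates come from 1 cell line and the labels do not say that they were separate cultures, so p-values measure only the spread between these libraries.

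Coagulation starts when tissue factor, the product of F3, binds factor VII on a cell surface and leads to thrombin. TFPI blocks that first step, and thrombomodulin (THBD) turns thrombin towards activation of the anticoagulant protein C. Fibrin is removed by plasmin. Urokinase (PLAU) bound to its receptor (PLAUR) makes plasmin from plasminogen, PAI-2 (SERPINB2) inhibits urokinase, annexin A2 (ANXA2) and its partner S100A10 hold plasminogen at the cell surface, and alpha-2-macroglobulin (A2M) traps proteases in plasma. In acute promyelocytic leukaemia, blasts with tissue factor and annexin A2 cause bleeding and clotting, which ATRA relieves. MOLM-13 is a leukaemia of another type.

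Reads per library ran from 4.67 M to 11.9 M. Group means were 10.1 M for untreated, 9.32 M for ATRA, 6.42 M for DAC+ATRA and 5.87 M for DAC cells. The 7 myeloid markers examined had reads in every group. Their sum ran from 51120 to 63165 normalised counts in untreated cells, 167612 to 211792 with DAC, 15317 to 20934 with ATRA and 59230 to 62215 with DAC+ATRA. It mainly followed LYZ, which averaged 41628, 153287, 6819 and 40819 in these groups. With DAC, MPO (log2 3.83) and LYZ (log2 1.88) were up and FLT3 (log2 -0.77) was down past the threshold given below. CD33, SPI1, CSF1R and PTPRC did not pass it (log2 0.22, 0.17, -0.18 and -0.22). With DAC+ATRA, MPO (log2 2.78) and CD33 (log2 0.88) were up and FLT3 (log2 -0.94) was down past it. LYZ, SPI1, CSF1R and PTPRC did not pass with DAC+ATRA (log2 -0.018, 0.27, 0.59 and -0.88). With ATRA, LYZ (log2 -2.65), MPO (log2 -0.95) and FLT3 (log2 -0.77) were down. CD33, CSF1R, SPI1 and PTPRC did not fall with ATRA (log2 0.58, 0.74, 0.24 and 0.020). Hepatocyte markers (ALB, APOA1, TTR) had none, and endothelial markers (CDH5, TEK, KDR, CLDN5) summed to at most 0.778 normalised counts in any library. Of 3 fibroblast markers COL1A2 was at 0, COL1A1 averaged 8.03 in untreated and 79.0 in ATRA cells, and PDGFRB averaged 25.0 and 16.6. Of 3 megakaryocyte markers GP1BA and PF4 were at 0, and ITGA2B averaged 23.9 in untreated cells, 37.8 with DAC, 8.45 with ATRA and 3.26 with DAC+ATRA. The part of these markers in the results was not tested. Values below are normalised counts, that is reads divided by 1 size factor per library. They were not divided by gene length and so are compared only within a gene.

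Of the 9 genes, 7 passed the filter on low values, which asked for 10 or more normalised counts in 3 or more libraries. SERPINB2 and TFPI did not. The threshold was a limma adjusted p below 0.01 over 10642 protein-coding genes, and genes past it are those called. DAC lowered 2 of the 7 and raised none, where 7.97% of all tested genes were called (4.29% higher, 3.67% lower). ATRA raised 2 and lowered 3, against 26.0% of all tested genes (12.1% higher, 14.0% lower). DAC+ATRA raised 2 and lowered 2, against 28.9% (14.5% higher, 14.4% lower). The median log2 fold change over the 7 genes was -0.59 with DAC, -0.71 with ATRA and -0.10 with DAC+ATRA, while that of all tested genes lay between -0.038 and -0.0039. The 3 comparisons share the untreated libraries. Groups without overlap were common. Of all tested genes, 30.4% were apart between DAC and untreated libraries, 50.7% between ATRA and untreated and 55.8% between DAC+ATRA and untreated. The share was 39.6% for DAC+ATRA against DAC, 39.9% for DAC+ATRA against ATRA and 45.1% for ATRA against DAC.

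**Figure D1:**
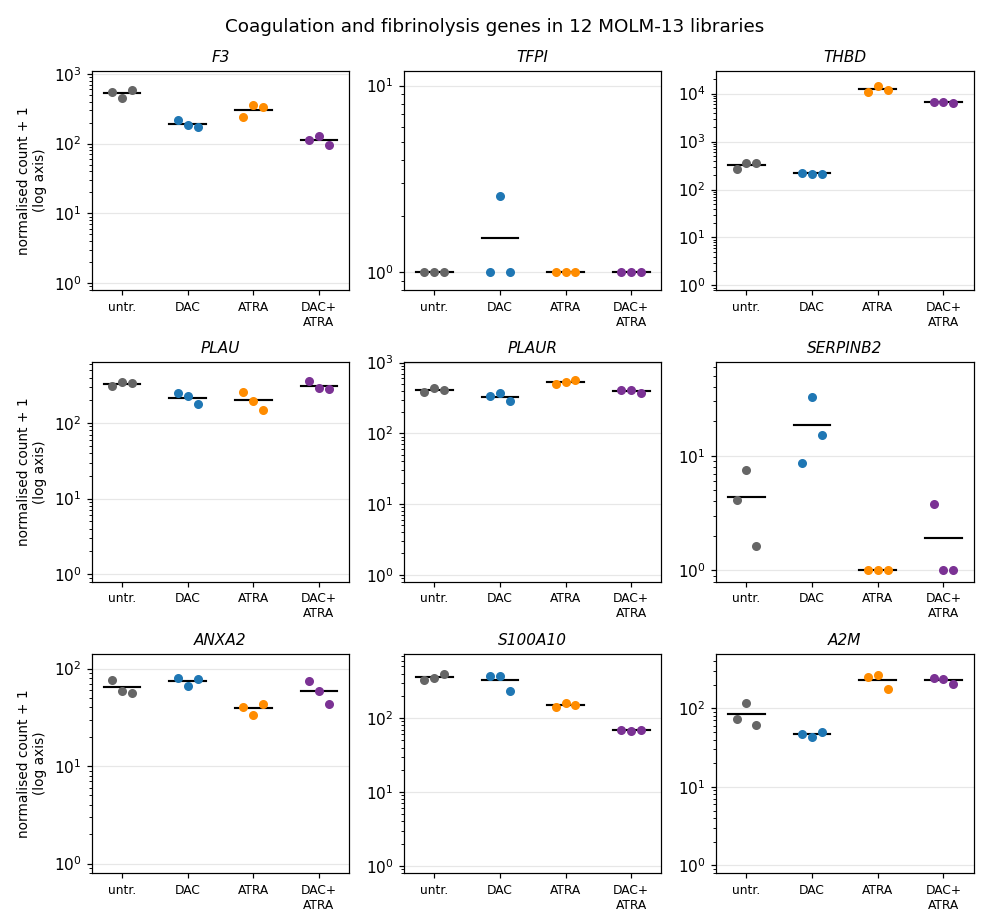
Normalised count + 1 (log axis) of the 9 genes in each of the 12 libraries, by group. Points are libraries and bars are group means. THBD lies at 6518 or above in all 6 libraries with ATRA and at 364 or below in the other 6, and F3 and S100A10 are lowest in DAC+ATRA.

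THBD, the thrombin receptor that serves protein C, had the widest range. It read 271, 349.9 and 364 in untreated cells and 223, 213 and 211 in DAC cells. ATRA libraries held 11008, 14268 and 11854, and DAC+ATRA libraries 6645, 6721 and 6518. All 6 libraries with ATRA stood far above the other 6, and the DAC+ATRA libraries lay below every ATRA library. The mean rose from 328 ± 49.8 (SD, n = 3) to 12377 ± 1692 with ATRA, 37.7-fold (log2 5.23 ± 0.12 SE, limma adjusted p = 1.07e-16), and 20.3-fold with DAC+ATRA (log2 4.34, limma adjusted p = 1.62e-15). DAC+ATRA stayed 1.86-fold below ATRA alone (log2 -0.89, 95% interval -1.14 to -0.64, limma adjusted p = 2.36e-05). In bulk RNA, fewer cells with a transcript and less transcript per cell cannot be told apart. DAC alone gave 1.51-fold less than untreated (log2 -0.59, limma adjusted p = 0.00189), a call lost without untreated replicate 2 (adjusted p = 0.0171) or 3 (adjusted p = 0.0152) and in a fit of these 2 groups alone (adjusted p = 0.0381). On the log scale the effect of DAC did not differ detectably with ATRA present (interaction -0.30, 95% interval -0.65 to 0.053, limma adjusted p = 0.443). THBD (chr20:23045633-23049672, minus strand) has a single transcript in the annotation, and that transcript carried all of its reads.

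F3, the initiator, was lower in all 3 treated groups (labelled 72 h) than in untreated cells (labelled 96 h). It read 546, 454 and 592 in untreated cells, 238, 352 and 329 with ATRA, 220.1, 182 and 171 with DAC, and 113, 129 and 95.0 with DAC+ATRA. No group overlapped another. The order of the means was untreated (531 ± 70.4, SD, n = 3), ATRA (306 ± 60.0), DAC (191 ± 25.8) and DAC+ATRA (113 ± 17.3), and each neighbouring pair differed past the threshold. F3 fell 2.77-fold with DAC (log2 -1.47 ± 0.17 SE, limma adjusted p = 6.96e-06), 1.74-fold with ATRA (log2 -0.80, limma adjusted p = 9.87e-04) and 4.69-fold with DAC+ATRA (log2 -2.23, limma adjusted p = 4.63e-09). The combination lay 2.69-fold below ATRA (limma adjusted p = 6.96e-06) and 1.69-fold below DAC (limma adjusted p = 0.00220). The effect of DAC did not differ detectably with ATRA present (interaction 0.042, 95% interval -0.47 to 0.55, limma adjusted p = 0.967). The step from DAC to DAC+ATRA lost its call without DAC replicate 1 (limma adjusted p = 0.0121) or DAC+ATRA replicate 3 (0.0192). The step from ATRA to DAC lost it without DAC replicate 2 (0.0161), DAC replicate 3 (0.0101), ATRA replicate 2 (0.0314) or ATRA replicate 3 (0.0232), and in a fit of these 2 groups alone (0.0148). All 4072 reads of F3 (chr1:94529173-94541759, minus strand) lay on 1 of its 2 transcript rows.

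TFPI, which inhibits the tissue factor pathway, had 1 read in all, in a DAC library, and 0 in the other 11. A count of 0 allows up to 3 reads in a library, which is 1.88 to 4.70 normalised counts depending on its depth, so any change at or below that level was not detectable.

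**Figure D2:**
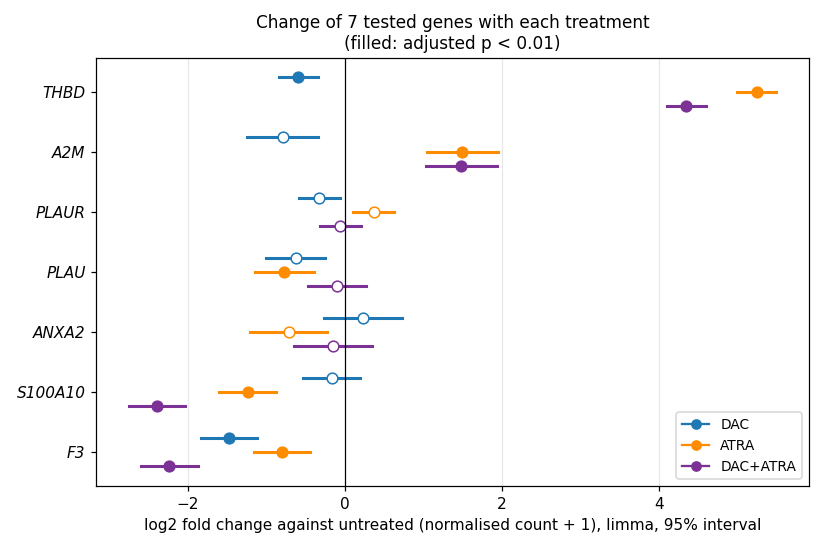
Log2 fold change of normalised count + 1 against untreated cells for the 7 tested genes, with 95% intervals from limma. Blue is DAC, orange ATRA and purple DAC+ATRA, and filled points have an adjusted p below 0.01. THBD and A2M lie to the right of 0 with ATRA and with DAC+ATRA, and F3 lies to the left with all 3 treatments.

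PLAU, which encodes urokinase, was highest in untreated and DAC+ATRA cells. It read 310.3, 346 and 337 in untreated cells, 246, 224 and 179.6 with DAC, 254, 196 and 145 with ATRA and 357, 289 and 285 with DAC+ATRA. The DAC and ATRA libraries all lay below every untreated and every DAC+ATRA library. PLAU fell 1.71-fold with ATRA (log2 -0.77 ± 0.18 SE, limma adjusted p = 0.00198), although the call was lost without untreated replicate 2 (0.0118) or ATRA replicate 3 (0.0185). It did not pass with DAC (log2 -0.62, limma adjusted p = 0.0223) or with DAC+ATRA (log2 -0.10, 95% interval -0.47 to 0.27, limma adjusted p = 0.693). The effect of DAC differed with and without ATRA by 1.29 log2 units (95% interval 0.76 to 1.82, limma adjusted p = 0.00508), the only interaction called among the 7 genes where 1.60% of all tested genes were called (0.724% higher, 0.874% lower). That call was lost on leaving out any of 9 of the 12 libraries, with adjusted p-values of 0.0104 to 0.0235.

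The reads of PLAU (chr10:73909177-73917496, plus strand) were split between a pair of transcript rows that did not move alike. The row ENST00000372764.4 averaged 188 in untreated cells, 142 with DAC, 114 with ATRA and 214 with DAC+ATRA, and ENST00000446342.5 averaged 143, 74.9, 84.2 and 96.3. The first row held 53.1 to 58.5% of the gene's reads in untreated and 66.9 to 72.2% in DAC+ATRA libraries, which did not overlap. On this row alone DAC+ATRA was 0.18 log2 units above untreated, against 0.10 below for the sum. C10orf55 overlaps PLAU on the opposite strand and held 16.7 to 38.9 normalised counts per library.

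PLAUR, the urokinase receptor, changed less. It read 385, 438 and 413 in untreated cells, 341, 365 and 284 with DAC, 495, 529 and 573 with ATRA and 409, 411 and 367 with DAC+ATRA. Every ATRA library stood above every other library, but ATRA and untreated libraries were apart in 50.7% of all tested genes. None of the differences from untreated passed, with log2 0.37 for ATRA (95% interval 0.11 to 0.63, limma adjusted p = 0.0252), -0.32 for DAC (adjusted p = 0.0873) and -0.058 for DAC+ATRA (adjusted p = 0.743). The call for ATRA was reached without DAC replicate 3 (limma adjusted p = 0.00836). That library is not in this comparison, so the log2 value was unchanged and only the shared estimate of spread was smaller. ATRA stood 1.62-fold above DAC (log2 0.69, limma adjusted p = 1.68e-04). In that comparison 6 of the 7 genes were called, 4 higher and 2 lower in ATRA, against 29.4% of all tested genes (13.2% higher, 16.2% lower). RN7SL368P lies within PLAUR (chr19:43646095-43670547, minus strand) on the same strand and held 52.0 to 58.5 normalised counts in ATRA libraries against 11.7 to 25.5 in the others. Whether reads were shared between them was not tested.

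SERPINB2, which encodes PAI-2, was scarce and was not in the main test. It had 4, 8 and 1 reads in untreated libraries, 6, 20 and 13 in DAC, 0 in each ATRA library and 2, 0 and 0 in DAC+ATRA. In normalised counts the DAC libraries held 7.63, 31.4 and 14.2 and the untreated libraries 3.11, 6.49 and 0.627. DAC was the highest group without overlap, from 39 reads in all. DAC replicate 2 held 20 of them, and no fold is given.

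S100A10, the plasminogen-binding partner of annexin A2, fell with ATRA and fell further with both drugs. It read 329.7, 343 and 398 in untreated cells, 374, 367 and 232 with DAC, 139.8, 161 and 151 with ATRA and 68.6, 65.3 and 67.4 with DAC+ATRA. The ATRA libraries lay below all untreated and DAC libraries, and the DAC+ATRA libraries below all ATRA libraries. The mean was 357 ± 36.5 (SD, n = 3) in untreated and 67.1 ± 1.67 in DAC+ATRA cells, 5.24-fold lower (log2 -2.39 ± 0.17 SE, limma adjusted p = 1.74e-09). ATRA alone lowered it 2.36-fold (log2 -1.24, limma adjusted p = 1.08e-05), and DAC+ATRA was 2.22-fold below ATRA (log2 -1.15, limma adjusted p = 7.83e-05). DAC alone gave log2 -0.17 (95% interval -0.53 to 0.19, limma adjusted p = 0.577). The interaction of -0.99 did not pass (95% interval -1.50 to -0.48, limma adjusted p = 0.0264). DAC replicate 3 was the lowest of its group, and without it the DAC effect was 0.059 and the interaction -1.21 (limma adjusted p = 5.14e-04). The interaction also passed in DESeq2 (adjusted p = 0.00581). The gene lies at chr1:151982915-151993859 on the minus strand. A minor transcript row, ENST00000368809.1, held 6.48 to 8.33% of its reads in ATRA libraries, at most 1.02% in untreated and DAC libraries and none in DAC+ATRA libraries.

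ANXA2 did not follow S100A10. It read 76.2, 58.5 and 55.2 in untreated cells, 78.9, 65.9 and 77.3 with DAC, 39.4, 32.7 and 41.8 with ATRA and 72.8, 58.5 and 41.9 with DAC+ATRA. ATRA libraries were below all others, by a narrow margin for DAC+ATRA replicate 3. The difference of ATRA from untreated did not pass (log2 -0.71, 95% interval -1.21 to -0.22, limma adjusted p = 0.0221), nor did that of DAC+ATRA (-0.15, 95% interval -0.64 to 0.34, adjusted p = 0.643). ATRA was 1.93-fold below DAC (log2 -0.95, limma adjusted p = 0.00308), a call lost without DAC replicate 1 (0.0117) or ATRA replicate 2 (0.0186). These values rest on 41 to 98 reads per library, from 3 transcript rows with reads of 4 in the table, where the annotation of the gene (chr15:60347134-60402883, minus strand) has 46 transcripts. Reads on its other transcripts or on its processed pseudogenes were not used here.

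**Figure D3:**
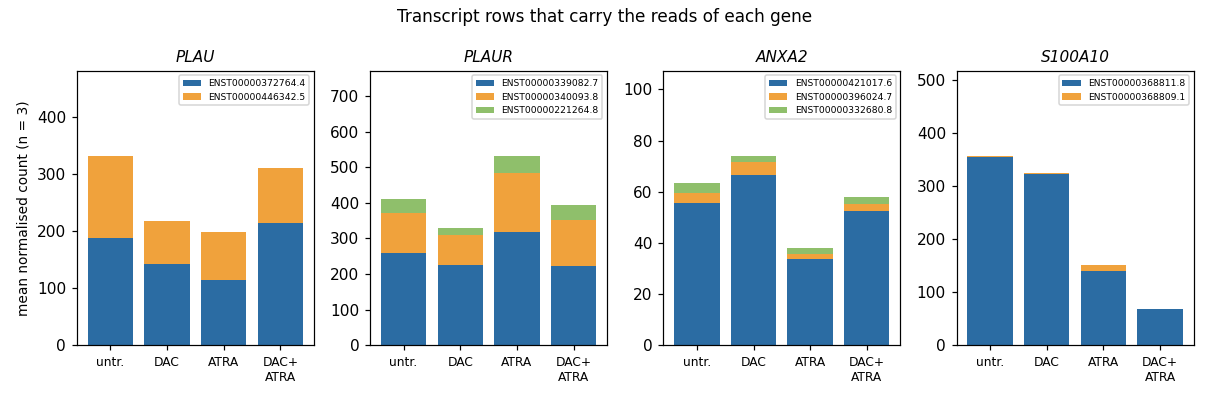
Mean normalised count (n = 3 libraries) in each group, stacked by the transcript rows that carry the reads of PLAU, PLAUR, ANXA2 and S100A10. The lower PLAU row makes up more of the bar in DAC+ATRA (mean share 68.7%) than in untreated cells (56.6%), and 1 row carries nearly all of S100A10.

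A2M, which encodes the plasma protease trap, rose with ATRA whether or not DAC was present. It read 73.1, 114 and 60.2 in untreated cells, 45.8, 42.3 and 49.0 with DAC, 248, 265 and 176 with ATRA and 242, 233 and 200.1 with DAC+ATRA. The 6 libraries with ATRA lay above the other 6. The rise was 2.82-fold with ATRA (log2 1.50 ± 0.22 SE, limma adjusted p = 1.76e-05) and 2.80-fold with DAC+ATRA (log2 1.48, limma adjusted p = 1.97e-05). DAC+ATRA and ATRA differed by log2 -0.013 (95% interval -0.47 to 0.44). The value with DAC was log2 -0.79 (limma adjusted p = 0.0172), which passed without untreated replicate 3 (adjusted p = 0.00719). A2M-AS1 overlaps A2M (chr12:9067664-9116229, minus strand) on the opposite strand and had at most 6 reads in a library.

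Against the single agents, DAC+ATRA differed from DAC in 4 of the 7 genes where 18.8% of all tested genes were called (9.04% higher, 9.74% lower), with THBD (log2 4.94) and A2M (log2 2.27) higher and S100A10 (log2 -2.22) and F3 (log2 -0.76) lower. It differed from ATRA in 3 where 11.9% were called (6.47% higher, 5.46% lower), and THBD, F3 and S100A10 were all lower. PLAU (log2 0.67, limma adjusted p = 0.0111) and PLAUR (log2 -0.43, limma adjusted p = 0.0188) did not pass in that comparison. Without DAC replicate 3 both passed (adjusted p = 0.00310 and 0.00485). DAC libraries are not in this comparison, so leaving one out left the log2 values unchanged and altered only the shared estimate of spread. PLAU alone also passed without DAC replicate 1 (0.00961) or ATRA replicate 1 (0.00158), and both passed in DESeq2 (0.00458 and 0.00624).

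The promoters of F3 and S100A10, which both fell in DAC+ATRA below either agent alone, and of ANXA2, whose product pairs with S100A10, are shown because decitabine acts on CpG methylation and retinoic acid through nuclear receptors. Each is the 250 bases before the RefSeq transcription start in GRCh38.p14, minus strand, read 5′ to 3′. Capitals mark TGAGTCA (an AP-1 motif) and AGGTCA or GGGTCA (nuclear receptor half-sites) on either strand.
F3, chr1:94541760-94542009: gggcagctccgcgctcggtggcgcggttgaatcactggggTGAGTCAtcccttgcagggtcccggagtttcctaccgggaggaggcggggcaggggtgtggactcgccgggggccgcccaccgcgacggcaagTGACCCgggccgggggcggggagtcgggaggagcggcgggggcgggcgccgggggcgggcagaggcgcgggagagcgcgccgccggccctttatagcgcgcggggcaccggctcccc
S100A10, chr1:151993860-151994109: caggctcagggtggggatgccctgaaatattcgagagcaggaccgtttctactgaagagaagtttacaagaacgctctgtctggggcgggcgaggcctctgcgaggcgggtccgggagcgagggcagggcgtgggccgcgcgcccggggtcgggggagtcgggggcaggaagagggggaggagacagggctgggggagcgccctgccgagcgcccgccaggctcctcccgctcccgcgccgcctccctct
ANXA2, chr15:60397987-60398236: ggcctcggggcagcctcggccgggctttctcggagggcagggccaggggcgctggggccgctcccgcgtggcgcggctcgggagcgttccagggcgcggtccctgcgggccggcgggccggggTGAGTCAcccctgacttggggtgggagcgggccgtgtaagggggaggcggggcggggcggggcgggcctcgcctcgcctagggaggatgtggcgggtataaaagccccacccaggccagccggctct
In 300-base windows that add the 50 bases after the start, F3 held 38 CpG dinucleotides, S100A10 and ANXA2 32 each, PLAU 5 and 28 in its 2 windows, PLAUR 18, TFPI 4 and SERPINB2 1, against a median of 14 over 35116 RefSeq promoters. TGAGTCA was found 210 bases before the start of F3, 186 before that of PLAUR and 127 before that of ANXA2, and 4.95% of all promoters hold it. GGGTCA was found in F3 (14.1% of all promoters), and AGGTCA in TFPI and SERPINB2 (13.8%). TATAAA, searched on both strands, was found in F3, ANXA2 and SERPINB2 (11.5%). Of these motifs, none was in the windows of S100A10 and PLAU. The direct repeat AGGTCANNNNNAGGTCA was in none of the 7 genes with a RefSeq promoter here (0.00570% of all promoters). THBD and A2M, the genes called higher with ATRA, had no such promoter and were not searched for any motif. These matches describe letters only, and no binding or methylation was measured in these libraries.

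Other genes of the pathway were taken as 8 lists by role, 75 genes in all, of which 31 were tested. With DAC 10 of the 31 were called (7 higher, 3 lower), against 7.97% of all tested genes. With ATRA 11 were called (3 higher, 8 lower), against 26.0%, and with DAC+ATRA 9 (4 higher, 5 lower), against 28.9%. The 4 pseudogenes on the lists were not analysed here. The median log2 fold change over the 31 was 0.37 with DAC, -0.064 with ATRA and 0.27 with DAC+ATRA, where those of all tested genes were -0.0041, -0.038 and -0.0039.

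Of the plasminogen system, 6 of 12 genes were tested. ENO1, a surface plasminogen receptor besides a glycolytic enzyme, read 15300, 14541 and 12213 in untreated cells, 8924, 8478 and 10368 with DAC, 9357, 11286 and 10397 with ATRA and 6313, 6055 and 5646 with DAC+ATRA. Every untreated library stood above all treated ones, and every DAC+ATRA library below all others. ENO1 was lower in all 3 treated groups (72 h) than in untreated cells (96 h), by log2 0.60 with DAC, 0.44 with ATRA and 1.22 with DAC+ATRA. LRP1, which clears complexes of urokinase and its inhibitors, rose with DAC (log2 1.28), SERPINB8 rose with DAC+ATRA (log2 0.90), and MRC2, which encodes a partner of the urokinase receptor, rose with ATRA (log2 0.65). Of the 12 fits that each left out 1 library, 4 lost the ENO1 call with ATRA, 2 that with DAC, 1 the LRP1 call and 3 the SERPINB8 call.

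**Figure D4:**
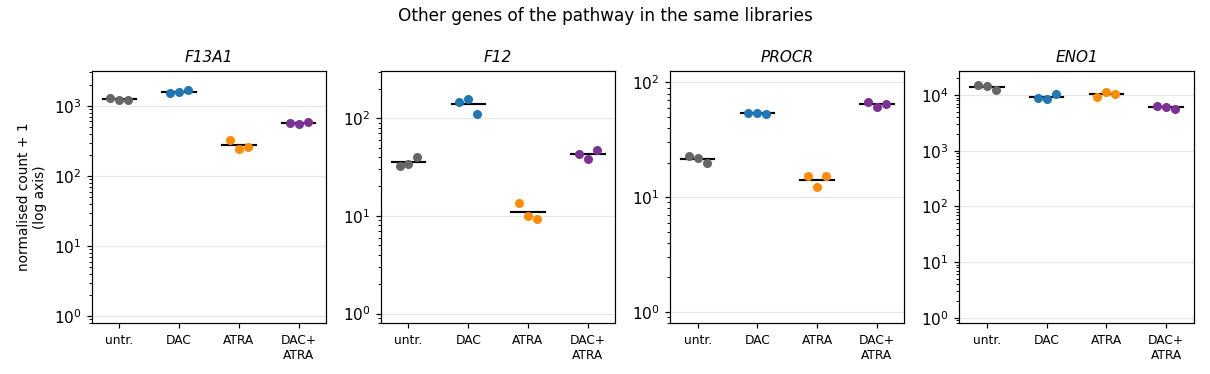
Normalised count + 1 (log axis) of F13A1, F12, PROCR and ENO1 in each library, by group. Points are libraries and bars are group means. F13A1 and F12 are lowest with ATRA, and ENO1 is highest in untreated and lowest in DAC+ATRA cells.

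Of 17 coagulation factors, 7 had no read in any library and 4 were tested. F13A1, the fibrin cross-linking factor XIII A subunit, averaged 1232 in untreated cells, 1588 with DAC, 273 with ATRA and 567 with DAC+ATRA, a fall of log2 2.18 with ATRA and 1.12 with DAC+ATRA. F12, which starts the contact pathway, averaged 34.4, 137, 9.94 and 41.7, a rise of log2 1.95 with DAC and a fall of 1.71 with ATRA. F8 rose with DAC (9.72 to 42.0) and DAC+ATRA (28.9, lost in 3 of the 12 fits). VWF, the carrier of factor VIII, fell from 37.4 to 9.49 with DAC, 10.7 with ATRA and 3.76 with DAC+ATRA. Some of these values rest on few reads. VWF had 2 to 5 reads per library with DAC+ATRA and 5 to 9 with DAC. F8 had 7 to 21 in untreated cells, and F12 had 10 to 14 with ATRA. The VWF call with DAC was lost in 6 of 12 fits that each left out 1 library and that with ATRA in 5.

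Among factor processing genes (7 of 8 tested), LMAN1, the cargo receptor for factors V and VIII, fell with ATRA (log2 -0.88) and DAC+ATRA (log2 -1.09), and P4HB, which encodes protein disulphide isomerase, fell with ATRA (log2 -0.42), a call lost in 10 of 12 such fits. Of the inhibitors (3 of 11 tested), PROCR, the protein C receptor that works beside thrombomodulin, averaged 20.6 in untreated cells, 53.0 with DAC, 13.2 with ATRA and 63.7 with DAC+ATRA, and rose with DAC (log2 1.33) and DAC+ATRA (log2 1.59). GAS6, a vitamin K-dependent ligand, rose with DAC (log2 0.74) and fell with ATRA (log2 -0.50), the latter lost in 5 of the 12. F2R, the thrombin receptor PAR1, fell with DAC (log2 -1.47), and 2 of 4 receptors were tested. In the alpha-2-macroglobulin family (2 of 8 tested), C5 rose with ATRA (log2 1.24) and DAC+ATRA (log2 1.13), and C3 fell with ATRA (log2 -1.11) and rose with DAC (log2 0.52), the latter lost in 10 of the 12. Of 11 annexins 7 were tested. ANXA1 rose with DAC (log2 0.80) and ATRA (log2 0.67), gave log2 0.34 with DAC+ATRA, and had an interaction of -1.14 (limma adjusted p = 0.00184). The call with ATRA and that of the interaction were lost on the most abundant transcript row, where ATRA gave log2 0.39 (adjusted p = 0.0708) and the interaction was -0.87 (adjusted p = 0.0409). ANXA9 passed the filter only through its DAC libraries (14.2 to 17.3) and averaged 8.82 in untreated cells and 0.933, from 2 reads, with DAC+ATRA. A fit of the DAC and untreated groups alone lost the DAC calls of GAS6, ANXA1, LRP1, ENO1, C3 and VWF. Their limma adjusted p-values there were 0.0185, 0.0172, 0.0186, 0.0288, 0.0317 and 0.0137.

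For the 3 genes with the widest range of group means, the tested genes most alike over the 12 libraries were found by Pearson's r of log2 values, given as a description without a test. The libraries share 4 treatments, so any gene with the same order of groups scores high. THBD was most like SLC2A5 (r = 0.998), IRF1 (0.996) and CYP26A1 (0.995), a fructose transporter, an interferon regulatory factor and the main retinoic acid hydroxylase. SLC2A5 averaged 1503 in untreated cells, 751 with DAC, 65573 with ATRA and 31005 with DAC+ATRA, and CYP26A1 had 0 in untreated and DAC cells. S100A10 was most like PLEC (r = 0.984), TENT5C (0.972) and AHNAK (0.970). AHNAK, which encodes a partner of the annexin A2 and S100A10 complex, averaged 22966 without treatment, 7097 with ATRA and 4157 with DAC+ATRA. A2M was most like CD1C (r = 0.979), ALOX12 (0.975) and PARP14 (0.974).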

How the data were processed

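Strand-specific total RNA libraries depleted of ribosomal RNA were made by the authors, aligned with STAR to hg38, counted with htseq-count and scaled with DESeq2. The deposited signal is a normalised read count per transcript row, that is reads divided by 1 size factor per library. Dividing by the smallest step gave whole reads for 100% of values (tolerance 0.01 reads). Rows (100502) were summed per symbol, and 10642 protein-coding genes (10 or more normalised counts in 3 or more libraries) entered a test with limma 3.58.1 in R 4.3.3 on log2(normalised count + 1), with 1 coefficient per group over all 12 libraries and Benjamini-Hochberg adjustment per comparison, called below 0.01. A pseudocount of 1 understates changes of low genes. The interaction is the effect of DAC with ATRA minus that without. The code was tested on simulated data.

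The 9 genes and the pathway lists were chosen with earlier results of these data known, and 1 pathway gene is not reported here. From each list the text names genes called against untreated, at most the 4 with the largest change, and for the 3 widest-ranging genes the 3 most alike. Single genes given as overlapping or as technical values were chosen after their values were seen. Positions are from GENCODE 44 (GRCh38) and promoters from RefSeq, which matched 7 of 9 genes (all but THBD and A2M). A floor of 3 reads stands for a count of 0 and covers counting error only. The intervals come from limma and cover the spread between these libraries. Alternatives were other scalings, tests (edgeR 4.0.16 quasi-likelihood, DESeq2 1.42.0), filters, pseudocounts, thresholds, a replicate block and leaving out each library. Between libraries of the same group, a chi-square of their counts ran from 2.17 to 20.0 per gene, so no such pair held the same counts. No p-value or cut-off was set for it, and libraries of different groups were not compared.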

Additional observations from a re-analysis of the deposited data

Results flagged for a closer look

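PLAU and ANXA1 met a test of whether the effect of DAC differs with and without ATRA. The difference for PLAU was 1.29 log2 units (limma adjusted p = 0.00508). Its DAC effect was -0.62 without ATRA and 0.67 with it, and 9 of the 12 fits that leave out 1 library lost the call. The difference for ANXA1 was -1.14 (limma adjusted p = 0.00184), lost in 1 of 25 alternatives (adjusted p = 0.0409). The values come from normalised counts of 3 libraries per group, and their cause was not tested.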

How the results depend on the processing

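Of 1267 values of the 7 genes over the alternatives, 1198 kept their direction and their side of the threshold, 31 lost a call, 25 gained one and 13 changed sign. Many alternatives could not change the log2 value, such as another threshold or leaving out a library of a group not compared. The share that kept its direction therefore overstates how far direction was tested. The number of genes called with DAC (2) was 1 in a fit of the 2 groups alone and 1 over 2-fold, 4 at an adjusted p below 0.05, and 1 to 2 on leaving out a library. With ATRA (5) it was 3 over 2-fold, 7 at an adjusted p below 0.05 and 4 to 6 without a library, and with DAC+ATRA (4) it was 4 without any library. DAC+ATRA against DAC (4) gave 3 over 2-fold, 5 at an adjusted p below 0.05 and 3 to 4 without a library. DAC+ATRA against ATRA (3) gave 5 with DESeq2, at an adjusted p below 0.05 and on the most abundant transcript row, 2 over 2-fold, and 3 to 5 without a library. ATRA against DAC (6) gave 3 over 2-fold and 4 to 6 without a library. The interaction (1) gave 2 with DESeq2 and at an adjusted p below 0.05, and 0 to 2 without a library. It could not be fitted on fewer than all groups. On the most abundant row, the sign changed for PLAU in DAC+ATRA against untreated (0.18) and PLAUR in DAC+ATRA against DAC (-0.018). With total-count scaling it changed for A2M in DAC+ATRA against ATRA (0.014). On leaving out a library the log2 values that changed sign ranged from -0.29 to 0.059 for S100A10 with DAC, -0.33 to 0.058 for ANXA2 with DAC+ATRA, -0.19 to 0.10 for A2M in DAC+ATRA against ATRA, -0.35 to 0.056 for PLAU in ATRA against DAC and -0.13 to 0.16 for the F3 interaction. None of these was called, and the cause was not tested. Same-numbered libraries did not deviate together as a set (r of -0.263 to 0.114 over 18 pairs, 2 of them over 0.1). Of 12 libraries, 5 were most like their own number. With 3 libraries per group, the check cannot decide whether same-numbered libraries shared a culture or batch. The highest values lay between different numbers, untreated replicate 1 with DAC replicate 3 (r = 0.246) and DAC replicate 3 with ATRA replicate 1 (r = 0.214). What these libraries share was not tested. The replicate block gave 2, 5, 4, 4, 4, 6 and 1 calls in the 7 comparisons, against 2, 5, 4, 4, 3, 6 and 1. SERPINB2 (54 reads in all) and TFPI (1 read) did not pass the filter and were not in the main test. The alternative without a filter took them in, and no values from it are given here.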
